A study of Mus musculus with 9 samples.

Results

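The genes described are 35 members of the interferon response and of the sensing of nucleic acids in the cell. They were chosen by symbol and not by their values, from the 23457 rows of a table of read counts per gene. A row with the listed symbol was found for 34 of them, and 1, Ifi27, was found under its synonym Ifi27l1. RefSeq also lists Ifi27 as an older name of Ifi27l2a, another member, so the identity of the Ifi27 row rests on that synonym. By role they are 5 sensors, 8 transcription factors and 22 effectors. RNA came from the hearts of adult C57BL/6J mice, 4 labelled as germline Parkin knockouts (labelled KO) and 5 wild type (WT). Parkin is a ubiquitin ligase that marks damaged mitochondria for removal, and its loss in these mice is in every cell from the germline. The protocol names flash-frozen ventricular apices and the tissue label the whole heart. Each library was made from the poly(A) RNA of 1 heart, without strand, and p-values measure the spread between these hearts.

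The whole-gene count of Park2, the gene for Parkin, was 82, 53, 54 and 37 reads in labelled KO hearts 1 to 4, against 74, 14, 8, 44 and 16 reads in WT hearts 1 to 5. On a scale adjusted for library size and composition (TMM-scaled CPM, where CPM is the read count relative to the library's size) this was 3.12 ± 0.572 CPM in labelled KO hearts and 3.10 ± 1.14 CPM in WT hearts (SD, n = 4 and 5). The log2 fold change was 0.06 ± 0.26 (edgeR quasi-likelihood test, adjusted p = 0.863). With the trends on transcript GC content and length removed, as described below, Park2 was called higher in labelled KO hearts. That value was 0.83 (edgeR adjusted p = 0.016), and the groups did not overlap. The labels do not say which part of the gene was removed, and a count over the whole gene cannot show the loss of a part, so every direction below rests on the labels.

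Depth ran from 11637206 to 15777844 assigned reads in labelled KO hearts and from 4415183 to 20827699 in WT hearts, with WT hearts 2 and 3 the shallowest. Mitochondrially encoded transcripts took 10.04% to 15.41% of assigned reads in labelled KO hearts and 32.6% to 58.2% in WT hearts. The slope of each heart's gene levels against transcript GC content was 0.159 to 0.631 in labelled KO hearts and -0.383 to -0.184 in WT hearts, in log2 units for 10 points of GC percent. Beside the fold change of each tested member given heart by heart stands the value with the trends on GC content and length removed (the trend-corrected value). Cardiomyocyte markers, such as Myh6 and Actc1, summed to 96860 to 107500 CPM in labelled KO hearts and 74410 to 84200 CPM in WT hearts, and were the most abundant of the marker lists.

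Foreign or misplaced nucleic acid in the cytosol is detected by a small set of sensors. The DNA sensor cGAS makes a cyclic dinucleotide that activates STING, and the RNA sensors RIG-I and MDA5 act through MAVS, a protein of the outer mitochondrial membrane. Both arms activate IRF3 and IRF7, which induce type I interferon. Secreted interferon then acts through JAK kinases on a complex that contains STAT2 and IRF9 and binds the interferon-stimulated response element (ISRE) of effector genes. Mitochondrial DNA that escapes into the cytosol is a known ligand of cGAS, and the comparison asks whether these transcripts differ in hearts labelled as lacking Parkin.

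The pathway did not move in 1 direction. Of the 34 members that passed the filter on low counts, 11 rose and 8 fell in labelled KO hearts (edgeR, adjusted p under 0.05 over 12640 genes), and 15 did not pass the test. Called members were thus 55.9%, beside 51.4% of all genes tested, and the rise or fall of a member has to be read against that background. The median log2 fold change was 0.05 over the members and -0.01 over all genes tested, with members running from -2.09 for Irf2 to 2.16 for Ifi27l2a. The 2 groups of hearts did not overlap in CPM for 8 members that were higher and 8 that were lower in labelled KO hearts, which is 47.1% of the tested members beside 41.6% of all genes. With GC and length trends removed 9 members rose and 5 fell, beside 18.6% of all genes higher and 19.8% lower (38.4% called), and 13 of the 19 called members kept their call and direction. Without the shallow WT hearts 2 and 3, 10 members rose and 8 fell, beside 23.1% and 22.4% of all genes (45.6% called). In the authors' FPKM values (fragments scaled to transcript length and library size) 19 members rose and 2 fell (limma). There 5961 of 12637 genes rose and 769 fell, and the median of all genes stood at 0.44. Cxcl10, which the count filter left out, was tested there and is among the 19, while Mb21d1 was not tested. An alternative chosen after seeing the data centred each heart on its median gene. With it 8 members rose and 11 fell, beside 3214 and 3593 of 12637 genes.

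**Figure D1:**
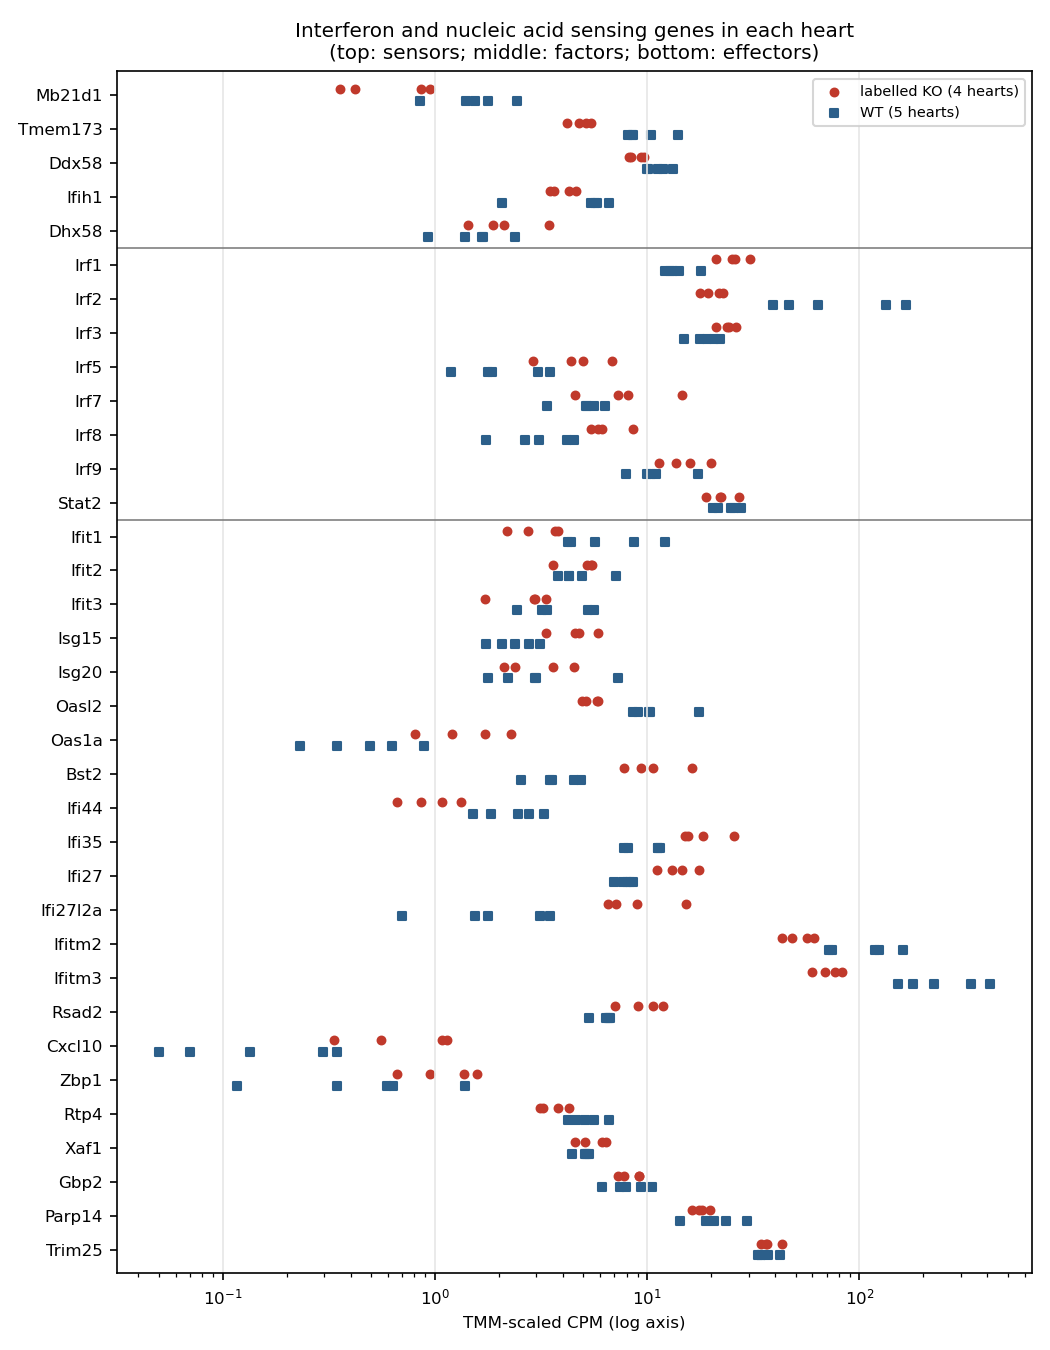
Level of each of the 35 members in every heart, in TMM-scaled CPM on a log axis, with circles for 4 labelled KO hearts above squares for 5 WT hearts. Lines separate sensors, factors and effectors, and the single value of 0 (Cxcl10 in WT heart 5) is drawn at 0.05. Irf2, Ifitm2 and Ifitm3 lie lower in every labelled KO heart, and Bst2 and Ifi27l2a higher.

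The ISRE stood in promoters of members that rose, of members that fell and of members that did not pass. Of the 35 members, 28 had a RefSeq window on GRCm38.p6 from 250 bases before to 50 after the start. The motif searched was GAAA, any 2 bases and GAAA again, or its reverse complement TTTC, any 2 bases and TTTC, with overlapping matches kept, and 14 of the 28 members held it, beside 3.99% of the 27025 genes with a window. It stood in 4 of 9 members that rose with a window, in 4 of 7 that fell and in 5 of 11 that did not pass. The palindromic GAS motif TTCNNNGAA (the gamma-activated site) stood in 9 of the 28 members and in 9.55% of the genes with a window. It was in 5 of the 9 that rose, 2 of the 7 that fell and 2 of the 11 that did not pass. These matches describe letters in a window, and binding was not measured.

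The 250 bases before the start are given for 3 members that rose (Bst2, Oas1a and Isg15) and 3 that fell (Ifit1, Ifitm2 and Irf2), to show the element in genes that moved in opposite directions. They are written 5′ to 3′ on the gene's strand, with ISRE matches in capitals. The windows are chr8:71537473-71537722 on the minus strand for Bst2, chr5:120907526-120907775 on the minus strand for Oas1a and chr4:156200819-156201068 on the minus strand for Isg15. Those of the genes that fell are chr19:34640639-34640888 on the plus strand for Ifit1, chr7:140955962-140956211 on the minus strand for Ifitm2 and chr8:46739495-46739744 on the plus strand for Irf2.
Bst2: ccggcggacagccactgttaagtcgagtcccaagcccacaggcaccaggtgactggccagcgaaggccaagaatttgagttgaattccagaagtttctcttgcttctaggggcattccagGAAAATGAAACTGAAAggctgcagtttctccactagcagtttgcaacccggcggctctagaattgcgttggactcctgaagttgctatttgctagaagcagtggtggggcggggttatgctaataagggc
Oas1a: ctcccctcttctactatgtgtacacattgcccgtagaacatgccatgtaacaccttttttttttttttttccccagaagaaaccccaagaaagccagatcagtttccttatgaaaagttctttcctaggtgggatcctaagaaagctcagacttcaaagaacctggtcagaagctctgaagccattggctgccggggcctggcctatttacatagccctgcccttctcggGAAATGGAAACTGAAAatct
Isg15: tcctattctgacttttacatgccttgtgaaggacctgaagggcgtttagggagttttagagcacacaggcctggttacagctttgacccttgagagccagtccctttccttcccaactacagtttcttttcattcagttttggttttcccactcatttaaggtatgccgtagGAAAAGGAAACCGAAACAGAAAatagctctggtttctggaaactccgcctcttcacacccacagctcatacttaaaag
Ifit1: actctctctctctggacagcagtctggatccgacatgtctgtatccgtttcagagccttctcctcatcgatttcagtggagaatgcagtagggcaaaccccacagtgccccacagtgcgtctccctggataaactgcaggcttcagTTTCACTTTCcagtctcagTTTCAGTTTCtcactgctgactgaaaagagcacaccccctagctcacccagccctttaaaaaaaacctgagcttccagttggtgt
Ifitm2: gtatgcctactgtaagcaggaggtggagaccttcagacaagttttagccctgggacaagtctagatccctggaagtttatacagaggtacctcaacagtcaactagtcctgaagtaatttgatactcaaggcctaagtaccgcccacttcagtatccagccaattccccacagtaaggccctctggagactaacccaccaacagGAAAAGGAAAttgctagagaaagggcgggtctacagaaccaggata
Irf2: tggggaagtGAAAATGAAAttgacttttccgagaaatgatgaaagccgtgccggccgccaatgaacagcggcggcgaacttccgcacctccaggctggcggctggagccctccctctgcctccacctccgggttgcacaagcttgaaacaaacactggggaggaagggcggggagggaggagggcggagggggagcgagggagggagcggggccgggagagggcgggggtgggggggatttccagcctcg
Isg15 held 3 overlapping matches, the first beginning 78 bases before the start. Bst2 and Oas1a each held 2 overlapping matches, beginning 130 and 20 bases before the start. Ifit1 held 2 separate matches at 104 and 85 bases, Ifitm2 held 1 at 46 bases and Irf2 held 1 at 241 bases.

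Among the sensors none rose and 2 of 5 fell, where 26.2% of all genes were called higher and 25.2% lower. Both that fell are of the DNA arm, and only Tmem173 kept its call with the trends removed. A difference between the DNA arm and the RNA arm was not tested. Tmem173 encodes STING, the adaptor in the membrane of the endoplasmic reticulum that cGAS activates. It stood at 4.18, 4.76, 5.41 and 5.15 CPM in labelled KO hearts 1 to 4, against 8.61, 10.4, 13.9, 8.15 and 8.47 CPM in WT hearts 1 to 5. Every labelled KO heart was below every WT heart, and WT heart 3 was the highest. Tmem173 fell by 0.97 on the log2 scale (SE 0.19, edgeR adjusted p = 7.21e-04), with a trend-corrected value of -1.09 that also passed. Mb21d1, which encodes cGAS, was scarce, with 5 to 20 reads in labelled KO hearts and 6 to 22 in WT hearts. Its levels were 0.950, 0.4215, 0.860 and 0.358 CPM in labelled KO hearts and 0.852, 2.43, 1.78, 1.545 and 1.39 CPM in WT hearts, with labelled KO hearts 1 and 3 overlapping WT heart 1. The fall was 1.07 (log2 fold change -1.07 ± 0.40, edgeR adjusted p = 0.034), but the call was lost on removal of the trends (-0.80), and without labelled KO heart 2 or 4 or WT heart 2, 3, 4 or 5.

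The RNA sensors did not pass in the edgeR test over all hearts, and other settings differed. In FPKM with each heart centred on its median gene Ddx58 (-0.33) and Ifih1 (-0.38) passed as lower. Without centring Dhx58 passed as higher (0.45), while Ddx58 (0.16) and Ifih1 (0.12) did not pass. Ifih1 also passed as lower without WT hearts 2 and 3 (-0.49). Ddx58, which encodes RIG-I, had 8.41, 9.39, 9.61 and 8.16 CPM in labelled KO hearts and 13.2, 10.1, 11.25, 11.9 and 9.98 CPM in WT hearts. The groups did not overlap, although the gap between them was small (log2 fold change -0.36 ± 0.15, edgeR adjusted p = 0.054; -0.14 with the trends removed), and it passed without WT heart 2 or without WT heart 5. Ifih1, which encodes MDA5, had 4.28, 3.49, 4.60 and 3.65 CPM in labelled KO hearts and 5.83, 6.59, 2.07, 5.41 and 5.69 CPM in WT hearts. WT heart 3 alone lay below the labelled KO hearts, and without it Ifih1 passed at -0.53; over all hearts the value was -0.39 ± 0.23 (edgeR adjusted p = 0.173), and 0.15 with the trends removed. Dhx58 encodes LGP2, a relative of RIG-I that lacks its signalling domain and modulates the RNA sensors. It had 1.43, 1.87, 2.12 and 3.44 CPM in labelled KO hearts and 1.66, 1.39, 2.37, 1.69 and 0.928 CPM in WT hearts, which overlapped (log2 fold change 0.47 ± 0.32, edgeR adjusted p = 0.228; 0.14 with the trends removed).

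**Figure D2:**
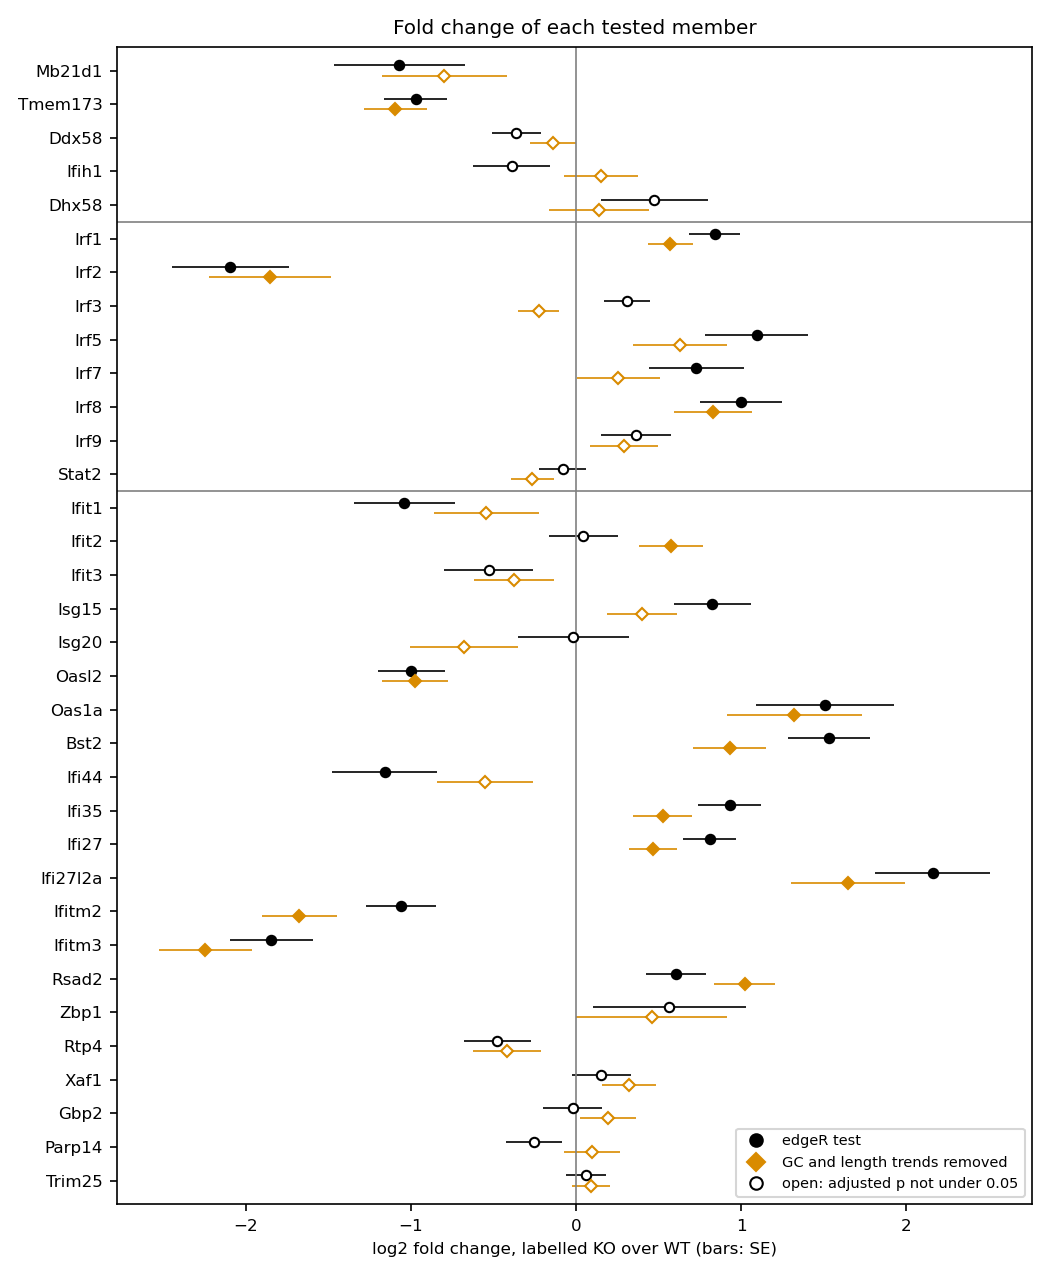
Log2 fold change of labelled KO over WT (with SE) for each of the 34 tested members, as circles for the edgeR test and diamonds with GC and length trends removed; filled symbols passed at an adjusted p under 0.05. Tmem173, Irf2, Oasl2, Ifitm2 and Ifitm3 passed as lower in both, and 8 members passed as higher in both.

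Of the 8 factors 4 rose and 1 fell (62.5% called, beside 51.4% of all genes), and IRF3, IRF9 and STAT2 transcripts did not pass. Irf2, a repressor that competes with IRF1 for the same DNA element, had the lowest log2 fold change of the members over all hearts without trend correction. It had 17.8, 21.8, 19.4 and 22.8 CPM in labelled KO hearts, against 39.2, 165, 134, 46.6 and 64.0 CPM in WT hearts. The labelled KO hearts lay close together while the WT hearts spanned a wide range, WT hearts 2 and 3 being far above the rest. Its log2 fold change was -2.09 ± 0.36 (edgeR adjusted p = 2.46e-04), or -1.85 with the trends removed, and -1.29 without WT hearts 2 and 3. In WT hearts Irf2 stood in the same order as the mitochondrially encoded share, which was 32.6% in WT heart 1, 37.8% in heart 4, 50.7% in heart 5, 55.9% in heart 3 and 58.2% in heart 2. The part of that share in the result was not tested.

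Irf1, an activator induced by interferon, rose. It had 21.0, 25.8, 30.3 and 25.1 CPM in labelled KO hearts and 17.9, 13.2, 12.1, 12.8 and 14.04 CPM in WT hearts, without overlap (log2 fold change 0.84 ± 0.15, edgeR adjusted p = 4.32e-04; 0.57 with the trends removed, which passed). Irf8, a factor of myeloid and dendritic cells, had 5.84, 5.42, 6.12 and 8.59 CPM in labelled KO hearts and 4.17, 4.51, 2.67, 3.09 and 1.74 CPM in WT hearts. Its groups were separate too (1.0 ± 0.25, edgeR adjusted p = 0.0036; 0.83 with the trends removed, which passed). Irf5, which acts below toll-like receptors in leukocytes, had 2.90, 4.396, 4.955 and 6.80 CPM in labelled KO hearts and 3.05, 3.47, 1.78, 1.19 and 1.86 CPM in WT hearts. It rose by 1.09 (SE 0.31, edgeR adjusted p = 0.0089), with labelled KO heart 1 inside the WT range, and its trend-corrected value of 0.63 did not pass. Exons of Irf5 overlap those of Tnpo3 on the other strand over 411 bases, and those of Irf7 overlap Phrf1 over 45 bases. Among other called members Ifi35 overlaps Gm11626 over 290 bases, Mb21d1 Gm8093 over 201 and Irf1 Gm17334 over 135, all on the other strand. Reads in these stretches cannot be assigned by strand.

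Beside these leukocyte factors, 13 markers of macrophages and monocytes were tested. Of these 3 rose and 3 fell (46.2% called, beside 51.4% of all genes). With the trends removed none rose and 4 fell, where 38.4% of all genes were called. The markers named below are only a part of the 6 called. Their summed level ran from 234 to 280 CPM in labelled KO hearts and from 213 to 308 CPM in WT hearts. C1qa, a complement component, rose (log2 fold change 0.89), but it stood at 0.08 and did not pass once the trends were removed. The macrophage markers Cd68 (-1.04) and Cx3cr1 (-1.22) fell, also with the trends removed (-1.38 for Cd68 and -1.25 for Cx3cr1). Of 12 markers of lymphocytes and dendritic cells only 4 passed the filter, with a summed level of 5.94 to 8.36 CPM in labelled KO hearts and 9.05 to 13.9 CPM in WT hearts, and the B cell marker Ms4a1 had 0 to 3 reads a heart in each group. Summed endothelial markers ran from 1206 to 1470 CPM in labelled KO hearts and from 1264 to 1538 CPM in WT hearts. Of these 12 markers 5 were higher and 2 lower (58.3% called). Summed fibroblast markers ran from 1489 to 2243 CPM in labelled KO hearts and from 1157 to 1310 CPM in WT hearts. Of these 9 markers 4 were higher and 3 lower (77.8% called). The trend-corrected calls were 3 higher and 2 lower for the endothelial and 1 higher and 2 lower for the fibroblast markers. The part of cell composition in the members' values was not tested, and in whole tissue fewer cells of a type and less RNA per cell cannot be told apart.

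In the edgeR test over all hearts Irf7 alone passed of the factors that act directly below the sensors or the interferon receptors. Irf3, Irf9 and Stat2 did not pass there. In FPKM Irf3 (0.85), Irf9 (0.83) and Stat2 (0.435) passed as higher, in the fit where 5961 of 12637 genes rose. Of these only Irf3 (0.35) passed with each heart centred on its median gene. Irf7, the interferon-induced partner of IRF3, had 4.56, 7.29, 8.14 and 14.5 CPM in labelled KO hearts and 6.32, 5.20, 5.63, 5.13 and 3.37 CPM in WT hearts. Labelled KO heart 4 stood highest and labelled KO heart 1 lay within the WT range (log2 fold change 0.73 ± 0.29, edgeR adjusted p = 0.045). Without labelled KO heart 4 the value was 0.37 and did not pass, and the call was also lost with the trends removed (0.25) and without labelled KO heart 2 or 3 or WT heart 2, 3, 4 or 5. Irf3 had 21.1, 26.3, 24.2 and 23.8 CPM in labelled KO hearts and 20.6, 14.9, 17.8, 21.98 and 19.15 CPM in WT hearts, where WT heart 4 stood above labelled KO heart 1 (0.31 ± 0.14, edgeR adjusted p = 0.070), and its sign turned with the trends removed (-0.23). Irf9 had 11.4, 13.7, 15.9 and 19.9 CPM in labelled KO hearts and 17.3, 7.98, 10.4, 11.0 and 9.98 CPM in WT hearts, where WT heart 1 reached into the labelled KO range (0.36 ± 0.21, edgeR adjusted p = 0.161; 0.29 with the trends removed). It passed as higher without WT heart 1, at 0.60. Stat2 averaged 22.6 ± 3.30 CPM in labelled KO hearts and 24.0 ± 2.95 CPM in WT hearts (SD, n = 4 and 5), a difference well within the spread (-0.08 ± 0.14, edgeR adjusted p = 0.662).

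Effectors went both ways, with 7 of 21 tested higher and 5 lower (57.1% called, beside 51.4% of all genes). All genes tested went both ways too, with 26.2% higher and 25.2% lower. The most abundant ones, Ifitm3 and Ifitm2, fell. Ifitm3, a membrane protein that blocks the entry of viruses, had 82.4, 69.1, 76.8 and 59.6 CPM in labelled KO hearts and 152, 334, 414, 178.5 and 224 CPM in WT hearts. No labelled KO heart came near the lowest WT heart, and WT hearts 2 and 3 were again the highest. Ifitm3 fell by 1.85 (SE 0.25, edgeR adjusted p = 4.93e-05), and the fall was 2.25 with the trends removed and 1.37 without WT hearts 2 and 3, passing each time. Ifitm2, its neighbour on chromosome 7, had 43.1, 56.4, 48.0 and 61.2 CPM in labelled KO hearts and 72.1, 118, 161, 74.2 and 123.5 CPM in WT hearts. It fell as well, without overlap (-1.06 ± 0.21, edgeR adjusted p = 8.59e-04; -1.68 with the trends removed, which passed). Reads may be shared between these paralogs, and their sequence identity was not measured, so the division between them is uncertain. Exons of Ifitm2 also overlap those of Gm45717 on the same strand over 268 bases.

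Oasl2, a protein of the oligoadenylate synthetase family, had 4.94, 5.12, 5.865 and 5.80 CPM in labelled KO hearts and 10.2, 9.02, 17.5, 10.25 and 8.59 CPM in WT hearts. It fell without overlap (log2 fold change -0.998 ± 0.20, edgeR adjusted p = 8.97e-04; -0.975 with the trends removed, which passed). Ifit1, which binds viral RNA at its cap, had 2.755, 3.67, 2.17 and 3.79 CPM in labelled KO hearts and 4.35, 8.67, 12.1, 4.21 and 5.69 CPM in WT hearts. The groups were separate, by a narrow margin for WT hearts 1 and 4 (-1.04 ± 0.31, edgeR adjusted p = 0.011), but the trend-corrected value of -0.54 did not pass and the value without WT hearts 2 and 3 was -0.62. Ifi44, an interferon-induced protein, had 1.33, 0.662, 0.860 and 1.07 CPM in labelled KO hearts and 1.84, 2.77, 3.26, 2.46 and 1.51 CPM in WT hearts. Its fall (-1.16 ± 0.32, edgeR adjusted p = 0.0069) was no longer called once the trends were removed (-0.55); at 40.35% its longest transcript has the lowest GC content of the members.

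**Figure D3:**
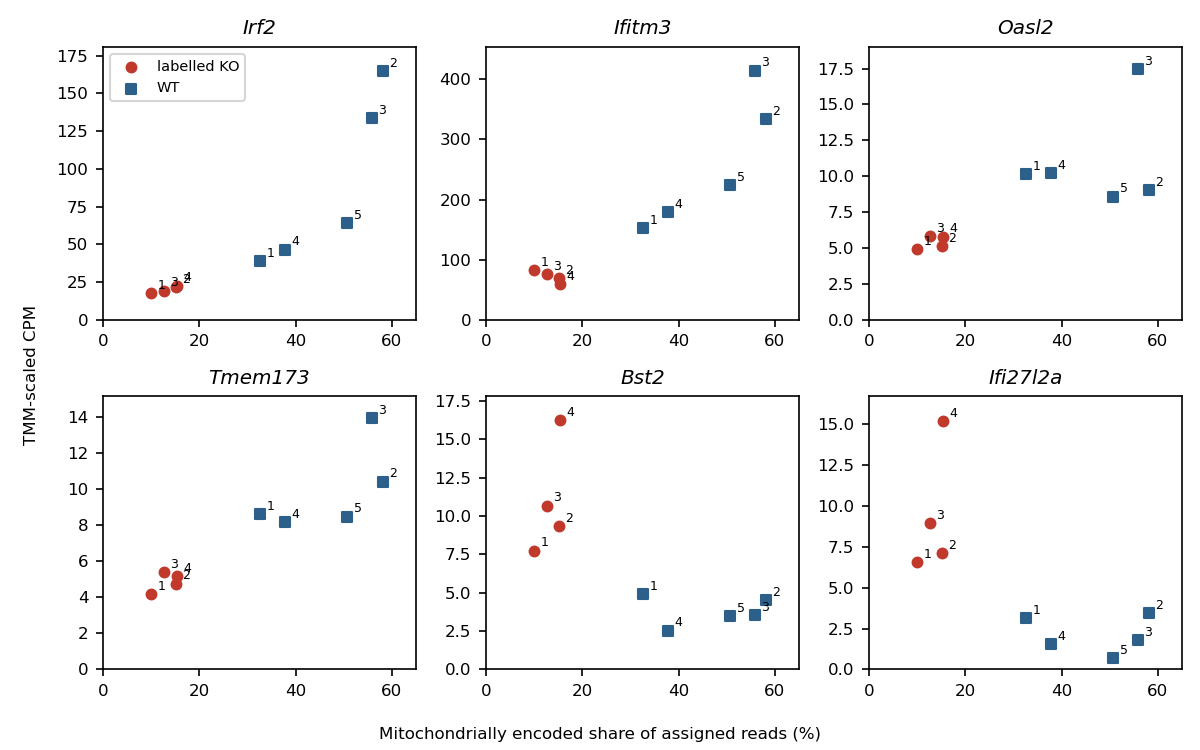
Level of 6 members (TMM-scaled CPM) against the mitochondrially encoded share of assigned reads in each heart, with circles for labelled KO and squares for WT and the heart number beside each point. The shares of the groups do not overlap (10.04% to 15.41% in labelled KO hearts, 32.6% to 58.2% in WT hearts); among WT hearts Irf2 and Ifitm3 are highest in hearts 2 and 3, and Bst2 and Ifi27l2a are higher in every labelled KO heart.

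Ifi27l2a rose most of all members. The ISG12 family to which it and Ifi27 belong consists of small hydrophobic interferon-induced proteins. Its levels were 6.555, 7.11, 8.95 and 15.2 CPM in labelled KO hearts and 3.14, 3.47, 1.78, 1.545 and 0.696 CPM in WT hearts, so that even the lowest labelled KO heart exceeded the highest WT heart (log2 fold change 2.16 ± 0.35, edgeR adjusted p = 1.69e-04; 1.65 with the trends removed, which passed). Ifi27 had 11.2, 13.01, 14.5 and 17.5 CPM in labelled KO hearts and 8.56, 6.94, 8.29, 8.01 and 7.66 CPM in WT hearts, also without overlap (0.81 ± 0.16, edgeR adjusted p = 7.90e-04; 0.47 with the trends removed, which passed). The Ifi27 locus (chr12:103434189-103440245) lies within the span that RefSeq gives Ifi27l2a on the opposite strand (chr12:103433873-103443680, GRCm38.p6).

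Bst2 encodes tetherin, which holds budding viruses at the cell surface. It had 7.74, 9.33, 10.7 and 16.25 CPM in labelled KO hearts and 4.89, 4.51, 3.55, 2.53 and 3.48 CPM in WT hearts, with every labelled KO heart above every WT heart (log2 fold change 1.53 ± 0.25, edgeR adjusted p = 1.70e-04; 0.93 with the trends removed, which passed). Oas1a, an enzyme whose oligoadenylates activate RNase L, had 0.807, 1.20, 1.72 and 2.29 CPM in labelled KO hearts and 0.628, 0.347, 0.888, 0.492 and 0.232 CPM in WT hearts. Labelled KO heart 1 fell inside the WT range (1.51 ± 0.42, edgeR adjusted p = 0.0072; 1.32 with the trends removed, which passed), and counts were low, at 17 to 34 reads in labelled KO hearts and 1 to 14 in WT hearts. The gene has close paralogs, and reads may be divided among them.

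Isg15, a ubiquitin-like modifier, had 3.33, 4.76, 4.55 and 5.87 CPM in labelled KO hearts and 3.14, 1.73, 2.07, 2.39 and 2.79 CPM in WT hearts. Labelled KO heart 1 barely cleared WT heart 1 (log2 fold change 0.83 ± 0.23, edgeR adjusted p = 0.0079). Its trend-corrected value of 0.40 did not pass. Ifi35 had 15.6, 15.1, 18.4 and 25.7 CPM in labelled KO hearts and 11.2, 11.45, 11.25, 8.15 and 7.78 CPM in WT hearts, without overlap (0.93 ± 0.19, edgeR adjusted p = 9.49e-04; 0.53 with the trends removed, which passed). Rsad2, which encodes the antiviral enzyme viperin, had 7.08, 10.7, 11.9 and 9.09 CPM in labelled KO hearts and 6.37, 6.59, 5.33, 6.67 and 6.50 CPM in WT hearts. It rose without overlap (0.61 ± 0.18, edgeR adjusted p = 0.011), and its call was lost without labelled KO heart 3. Rsad2 has an AT-rich transcript (44.3% GC) and stood higher, at 1.02, with the trends removed.

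The remaining effectors did not pass in the edgeR test over all hearts or were too scarce. Cxcl10, a chemokine that draws T cells, had 7, 19, 11 and 15 reads in labelled KO hearts and 3, 1, 1, 1 and 0 reads in WT hearts, and it fell below the filter. Without a filter edgeR called it higher. In FPKM it was called higher too (0.80), but not with each heart centred on its median gene (0.31). Zbp1, a sensor of Z-form nucleic acid that is counted here as an effector, had 0.662 to 1.575 CPM in labelled KO hearts and 0.116 to 1.39 CPM in WT hearts (log2 fold change 0.57 ± 0.46, edgeR adjusted p = 0.319), and it passed without WT heart 1, at 1.35. Ifit2 (0.04), Ifit3 (-0.53), Isg20 (-0.02), Rtp4 (-0.48), Xaf1 (0.15), Gbp2 (-0.02), Parp14 (-0.25) and Trim25, the ligase that activates RIG-I (0.06), did not pass over all hearts, by the log2 fold changes in parentheses. Rtp4 passed as lower without labelled KO heart 4 (-0.55) or WT heart 1 (-0.56). Ifit2 alone of the uncalled members passed with the trends removed, as higher (0.58). Trim25 averaged 37.6 ± 3.81 CPM in labelled KO hearts and 36.2 ± 3.58 CPM in WT hearts (SD, n = 4 and 5).

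Per length of transcript the IFITM genes dominated both groups. In the authors' FPKM table Ifitm3 averaged 203.5 ± 36.8 and Ifitm2 154 ± 16.3 FPKM in labelled KO hearts, followed by Ifi27l2a at 43.7 ± 16.1 by Bst2 at 23.5 ± 6.67 and by Ifi27 at 22.8 ± 3.27 FPKM, which did not differ beyond their spread. Ifitm3 averaged 453 ± 122 and Ifitm2 204 ± 40.7 FPKM in WT hearts, followed there by Irf2 at 29.1 ± 13.2 and then by Ifi27 at 9.05 ± 1.49 FPKM. Ifi27l2a and Bst2 stood at 6.76 ± 4.04 and 5.52 ± 2.01 FPKM in WT hearts, each within the spread of the other. The sensors were low throughout: Mb21d1 averaged 0.303 ± 0.142 FPKM in labelled KO hearts and 0.384 ± 0.0689 in WT hearts, and Tmem173, the highest of the 5, 2.81 ± 0.228 FPKM in labelled KO hearts and 3.78 ± 0.711 in WT hearts (SD, n = 4 and 5). In FPKM without centring, only Irf2 and Ifitm3 were called lower among the members, and Tmem173 stood at -0.32 without passing.

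The order of single hearts was alike for many members. Labelled KO heart 4 was the highest of its group for 9 of the 11 members that rose, and labelled KO heart 1 was the lowest for 9. With GC and length trends removed these numbers were 9 and 8. Labelled KO heart 4 also had the steepest GC slope (0.631) and labelled KO heart 1 the shallowest (0.159). For the 8 members that fell, WT heart 3 was the highest of its group for 6 and WT heart 2 for the other 2.

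Base composition ran alongside direction. Of the 19 tested members whose longest transcript was at or above the median GC content of tested genes (49.95%), 10 rose and 3 fell, with a median log2 fold change of 0.73. Of the 15 below it 1 rose (Rsad2) and 5 fell, with a median of -0.39. All tested genes split at the same GC content had medians of 0.37 and -0.38. Across the 34 members, which are not replicates, fold change and GC content had a Spearman rho of 0.56, beside 0.59 across 12548 tested genes with a GC value, and 0.20 across the members with the trends removed. The 3 members at or above the median that fell were Tmem173, Ifitm2 and Ifitm3, with GC contents of 51.15% to 54.35%. The part of base composition in the members' values was not tested beyond that correction.

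**Figure D4:**
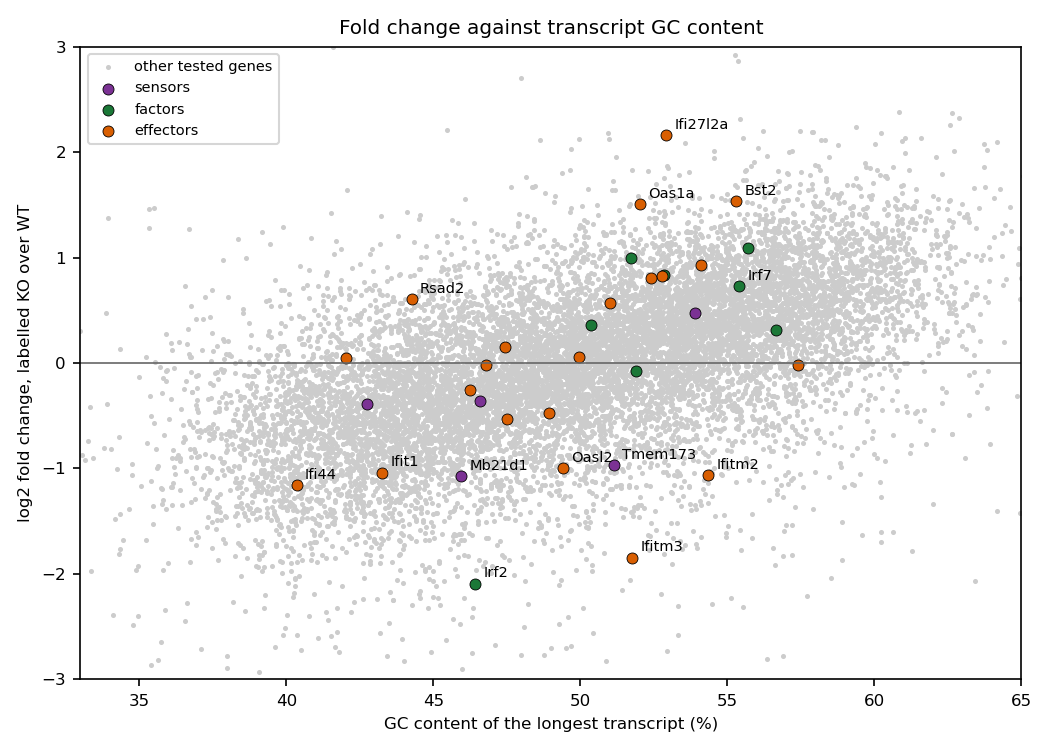
Log2 fold change of labelled KO over WT against the GC content of the longest transcript, with each tested gene as a grey point and the 34 tested members coloured by role; genes beyond the axis limits are not drawn. The grey cloud rises from lower left to upper right (Spearman rho 0.59), and Ifi27l2a, Rsad2, Tmem173, Ifitm2, Ifitm3 and Irf2 lie away from its centre.

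Other genes of the pathway, in 5 lists of 122 genes that hold no member, went both ways too. Of 110 tested, 27 rose and 34 fell (55.5% called, beside 51.4% of all genes), with a median log2 fold change of 0.03, and the trend-corrected calls were 18 higher and 25 lower. In the authors' FPKM values 49 rose and 9 fell, in the fit where 5961 of all 12637 genes rose and 769 fell. Interferon receptors and JAK-STAT genes had 5 of 15 higher and 4 lower. The kinase Tyk2 (log2 fold change 1.003) and Stat3 (0.63) rose, while Jak1 (-0.76) and Pias1 (-1.33) fell. With the trends removed these 4 kept their calls, at 0.48 for Tyk2, 0.46 for Stat3, -0.58 for Jak1 and -0.73 for Pias1. The signal relay below the sensors had 6 of 21 higher and 6 lower (57.1% called). Ikbkg, the regulatory subunit of IKK, rose (0.71), and Tank, a TBK1-binding adaptor, fell (-0.99). Tax1bp1 (-0.66) and the mitochondrial import receptor Tomm70a (-1.17) were lower too. With the trends removed Ikbkg passed at 1.17, and Tank (-0.28), Tax1bp1 (0.01) and Tomm70a (-0.50) did not pass. Named outside the rule after their values were seen, Mavs averaged 73.8 CPM in labelled KO hearts and 80.6 CPM in WT hearts, and Tbk1 averaged 12.6 CPM in labelled KO hearts and 14.1 CPM in WT hearts. Neither passed (edgeR adjusted p = 0.391 for Mavs and 0.408 for Tbk1). Mavs was called lower with the trends removed (-0.47).

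Other nucleic acid sensors had 3 of 14 higher and 6 lower (64.3% called, beside 51.4% of all genes). The helicase Ddx41 rose (1.24), and the kinase PKR (Eif2ak2, -1.23), Ifi203 (-1.71) and the endosomal receptor Tlr3 (-1.40) fell. These 4 kept their calls with the trends removed, at 0.73 for Ddx41, -0.79 for Eif2ak2, -0.98 for Ifi203 and -0.77 for Tlr3. The list of nucleases that remove DNA or RNA ligands, which also holds helicases such as Skiv2l, had 6 of 13 higher and 2 lower. That is 61.5% called, beside 51.4% of all genes (26.2% higher and 25.2% lower). With the trends removed 4 were higher and 1 lower (18.6% and 19.8% of all genes), and the median log2 fold change went from 0.14 to 0.04. Trex1, the cytosolic exonuclease that degrades DNA, averaged 16.8 ± 3.19 CPM in labelled KO hearts and 7.32 ± 1.88 CPM in WT hearts (SD, n = 4 and 5; log2 fold change 1.11 ± 0.19, edgeR adjusted p = 2.35e-04), or 0.41 with the trends removed, which passed. Rnaseh2c, a subunit of RNase H2, averaged 8.31 ± 1.58 CPM in labelled KO hearts and 2.06 ± 0.665 CPM in WT hearts (1.87 ± 0.22, edgeR adjusted p = 2.048e-05; 1.17 with the trends removed), and the RNA helicase Skiv2l (0.92) and the mitochondrial nuclease Endog (1.01) rose too, Skiv2l passing at 0.32 once the trends were removed and Endog not passing at 0.02. The 2 that fell, named outside the rule, were Samhd1 (-0.45) and Pnpt1 (-0.59). With the trends removed Samhd1 passed at -0.44 and Pnpt1 did not pass at 0.07. The summed level of the list ran from 155 to 185.5 CPM in labelled KO hearts and from 121 to 135 CPM in WT hearts.

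Other interferon-stimulated genes had 7 of 47 higher and 16 lower (26.2% and 25.2% of all genes were called higher and lower), with a median of -0.29. With the trends removed 4 were higher and 13 lower, where 18.6% of all genes were called higher and 19.8% lower. Iigp1, an immunity-related GTPase, averaged 8.19 ± 3.80 CPM in labelled KO hearts and 37.7 ± 10.2 CPM in WT hearts (SD, n = 4 and 5; log2 fold change -2.20 ± 0.28, edgeR adjusted p = 3.075e-05). The nuclear body protein Sp100 (-1.62) and the chemokine Cxcl9 (-1.72) also fell, and the immunoproteasome subunit Psmb10 rose (1.43); with the trends removed all 4 kept their calls, at -1.54 for Iigp1, -1.29 for Sp100, -1.23 for Cxcl9 and 0.84 for Psmb10.

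**Figure D5:**
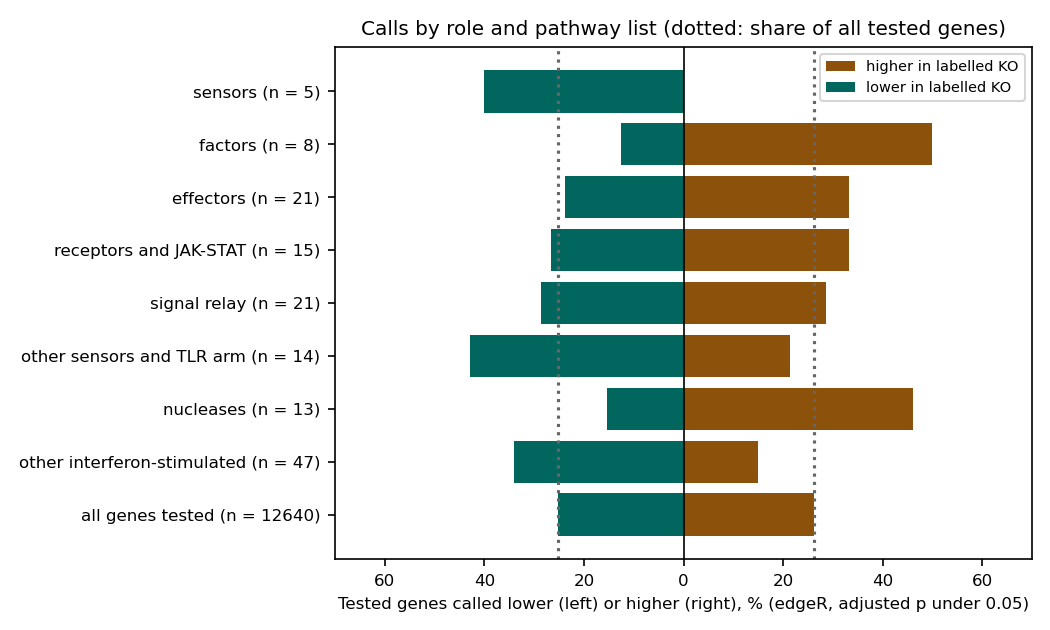
Share of tested genes called lower (left) and higher (right) in labelled KO hearts, in percent, for the 3 roles of the members, the 5 pathway lists and all genes tested; dotted lines mark the shares of all genes (25.2% lower, 26.2% higher). Sensors have no bar to the right. The longer bar lies to the right for factors, effectors, receptors and JAK-STAT genes, and nucleases. For the other sensors and the other interferon-stimulated genes it lies to the left.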

How the data were processed

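Raw read counts and FPKM values, each deposited by the authors as 1 table with a column for every heart, were used. Cufflinks 2.1, HTSeq, edgeR, DESeq, Bowtie2, TopHat and TopHat2 2.0.10, with mm10, are named in the submitters' processing notes; their roles, the annotation and the treatment of shared reads were not given in the sources used. Exons of 12 members overlap another GENCODE vM21 gene.

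Counts were tested with edgeR 4.0.16 in R 4.3.3 (TMM, default expression filter with at least 10 reads, 15 in total, quasi-likelihood F test, no replicate term), adjusted by Benjamini and Hochberg over all 12640 genes, at 0.05. Standard errors come from the F statistic. For the trend correction, the log2 deviations of a heart were smoothed by lowess (span 0.3) against GC content and then length of the longest GENCODE transcript, and entered as offsets for 12548 genes; it also removes biology that follows either. The procedures were tested on simulated data. FPKM values were tested with limma 3.58.1 on log2(FPKM + 1) for a mean of at least 0.5, which understates low genes. Other settings, DESeq2 1.42.0 among them, are in the closing section. No pair of hearts of a group agreed within sampling noise. The members and lists were chosen with earlier results of these data known. All members are named, with every heart's value for sensors, Irf3, Irf7, Irf9, Ifit1, Isg15 and called members. From each pathway list the 4 called genes with the smallest p are named, whichever way they moved. Single marker genes of cell types were named outside this rule, as were Mavs, Tbk1, Samhd1 and Pnpt1.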

Additional observations from a re-analysis of the deposited data

Results flagged for a closer look

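In 5 of 70 comparisons of 1 member within 1 genotype, a single heart stood apart by Dixon's test at 95%, which chance alone flags in about 5% of such comparisons. All 5 were WT hearts, where the test was over 5 hearts. Ifih1 was low in WT heart 3, at 2.07 CPM beside 5.41 CPM in the nearest heart, and Rsad2 was low there too, at 5.33 CPM beside 6.37 CPM. Oasl2 was high in WT heart 3, at 17.5 CPM beside 10.25 CPM. Isg20 was high in WT heart 2, at 7.28 CPM beside 3.004 CPM. Xaf1 was low in WT heart 5, at 4.41 CPM beside 5.11 CPM. WT hearts 2 and 3 are the shallowest libraries, and Ifih1 and Isg20 rest on 7 and 21 reads there.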

How the results depend on the processing

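The counts of called members, 11 higher and 8 lower, stayed within 1.5 times under RLE and upper-quartile factors, both other filters, DESeq2, and omission of mitochondrially encoded genes and Rn45s. With 1 heart left out in turn they ran from 9 to 13 higher and from 7 to 9 lower, those of the pathway lists from 22 to 27 higher and from 24 to 31 lower, and the median of the members from 0.01 to 0.12. In these fits 2841 to 3399 of all genes were called higher and 2704 to 3353 lower. Without both shallow WT hearts 10 members rose and 8 fell, and 23 pathway genes rose and 28 fell, where all hearts gave 27 and 34. The GC and length correction gave 5 members lower, and without both shallow WT hearts it gave 5 members lower and 16 and 18 pathway genes higher and lower. All genes called were 2332 higher and 2486 lower of 12548 with the correction. Without both shallow WT hearts they were 2054 and 2076 of 12683. FPKM with a pseudocount of 1 gave 19 members higher, 2 lower and a median of 0.49, and 49 and 9 pathway genes; with a pseudocount of 0.1 it gave 19, 2, 0.64, 48 and 7, and without a filter 19, 2, 0.48, 51 and 8. The median of all genes was 0.44, 0.59 and 0.16 in these 3. All genes called were 5961 higher and 769 lower, then 5834 and 754, of 12637, and without a filter 6195 and 792 of 18680.

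Equal replicate numbers do not pair the hearts: the correlations of their deviations were -0.113, 0.041, -0.065 and -0.259, and not every heart matched its own number best. With the replicate block 7 members rose and 7 fell, beside 2492 and 2538 of 12640 genes. With the block and the correction 4 members rose and 5 fell, and 11 and 21 pathway genes. Of all 12548 genes in that fit 1603 rose and 1908 fell.

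Centring and leaving out both shallow hearts under the correction were chosen after seeing the data. No called member changed sign in any setting. Among uncalled members the sign turned as follows, and the cause was not tested. With the correction Ifih1 was 0.15, Irf3 -0.23, Gbp2 0.20 and Parp14 0.10, without both shallow WT hearts 0.047, -0.31, 0.15 and 0.12, and with the block Ifih1 0.24, Dhx58 -0.039, Irf3 -0.20, Gbp2 0.11 and Parp14 0.10. In FPKM with pseudocounts of 1, 0.1 and no filter Ddx58 was 0.16, 0.24 and 0.16, Ifih1 0.12, 0.28 and 0.12, Stat2 0.43, 0.51 and 0.43, Isg20 0.33, 0.42 and 0.33, Rtp4 0.047, 0.059 and 0.047, Gbp2 0.48, 0.61 and 0.48, and Parp14 0.26, 0.36 and 0.26. Centred on the median gene Dhx58 was -0.038 and Ifit2 -0.19. Without both shallow WT hearts Stat2 was 0.003 and Isg20 0.16, with no filter Isg20 was 0.013 and Gbp2 0.009, and with the block Ifit2 was -0.032. With 1 heart left out Ifit2 ran from -0.026 to 0.17, Isg20 from -0.22 to 0.24, Gbp2 from -0.13 to 0.10 and Trim25 from -0.007 to 0.10. Depth limits scarce members such as Mb21d1, Oas1a, Zbp1, Ifi44, Dhx58 and Cxcl10.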
